A study of Mus musculus with 12 samples.

Results

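The levels of 4 broadly expressed miRNAs, miR-26a, miR-26b, miR-103 and miR-107, were examined in mouse quadriceps that lacked cofilin-2. They were selected by their names in the deposited table (mmu-miR-26a, mmu-miR-26b, mmu-miR-103 and mmu-miR-107), without the starred passenger strands, and all 4 were found among its 1096 miRNA names. The samples came from 6 cofilin-2 null mice (Cfl2-KO, here KO1 to KO6) and 6 wildtype mice (WT1 to WT6), all of the C57Bl/6 strain, at postnatal day 7, with 1 muscle sample for each mouse and no treatment. Each KO mouse had a WT littermate in the study, but which samples share a litter is not given. Null pups develop muscle disease in their first days and do not survive infancy, so a KO sample is a diseased muscle near the end of the animal's life. Cofilin-2 is a skeletal muscle protein that modifies actin filaments, and the comparison asks which miRNAs differ in muscle without it. Each value is a normalized intensity, the brightness of a miRNA's probe on an array of mouse miRBase sequences after the authors' normalization, on a linear scale.

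A miRNA is a short RNA that is cut from a hairpin precursor and guides the silencing machinery to messenger RNAs that pair with its seed, the stretch near its 5′ end. The miR-26 family and the pair miR-103 and miR-107 are widely expressed and lie within genes that code for proteins. The miR-26 hosts, the Ctdsp genes, code for small phosphatases that act on the C-terminal domain of RNA polymerase and restrain neural and cell cycle genes. The miR-103 and miR-107 hosts, the Pank genes, code for pantothenate kinases, which carry out the first step of coenzyme A synthesis. In muscle cells miR-26a is known to repress Ezh2, a histone methyltransferase that holds back myogenic differentiation. miR-103 and miR-107 are known to target Dicer and Caveolin-1, and have been tied to insulin sensitivity in liver and fat.

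The mature sequences are shown because the 4 miRNAs form 2 groups by seed and because the members of each group are nearly identical. They were taken from RefSeq (GRCm38.p6) and are written 5′ to 3′, with the seed (bases 2 to 8) in capitals. All 4 names matched an entry.
miR-26a: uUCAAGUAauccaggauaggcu
miR-26b: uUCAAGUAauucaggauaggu
miR-103: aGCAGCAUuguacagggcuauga
miR-107: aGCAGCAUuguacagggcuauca

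Of the 1679 mature mouse miRNA names in the RefSeq table, miR-26a and miR-26b were the 2 with the seed UCAAGUA, and miR-103 and miR-107 the 2 with the seed GCAGCAU. Counted from the 5′ end, miR-26b differs from miR-26a by C11U and C21U and is 1 base shorter (21 against 22). miR-107 differs from miR-103 by G22C alone, with the other 22 bases the same. The probe sequences are not given in the sources used here. How far a probe for one of a pair also captures its relative was not tested, so values within a pair may share signal.

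The 4 mature miRNAs come from 6 hairpins, each of which lies within a protein-coding gene on the same strand in RefSeq. miR-26a is made from Mir26a-1 within Ctdspl (chromosome 9, 119031796 to 119031885, plus strand) and from Mir26a-2 within Ctdsp2 (chromosome 10, 126995530 to 126995613, plus strand). Mir26b lies within Ctdsp1 (chromosome 1, 74394310 to 74394394, plus strand). miR-103 is made from Mir103-1 within Pank3 (chromosome 11, 35782396 to 35782481, plus strand) and from Mir103-2 within Pank2 (chromosome 2, 131288052 to 131288137, plus strand). Mir107 lies within Pank1 (chromosome 19, 34820687 to 34820773, minus strand). The 4 hairpins of the miRNAs with several loci are shown with the mature miRNA in capitals. The capital stretch is the same in each pair while the rest of the hairpin is not, so an array signal for miR-26a or miR-103 is a sum over its loci.
Mir26a-1: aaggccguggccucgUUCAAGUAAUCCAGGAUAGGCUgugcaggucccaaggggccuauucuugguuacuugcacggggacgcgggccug
Mir26a-2: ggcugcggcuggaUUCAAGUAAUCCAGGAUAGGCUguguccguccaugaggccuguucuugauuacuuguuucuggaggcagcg
Mir103-1: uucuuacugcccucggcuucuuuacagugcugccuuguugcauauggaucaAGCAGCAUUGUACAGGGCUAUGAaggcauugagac
Mir103-2: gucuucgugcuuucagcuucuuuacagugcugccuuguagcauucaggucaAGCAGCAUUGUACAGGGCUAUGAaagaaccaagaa

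The labels give Cy5 as the dye of each WT sample and Cy3 as that of each KO sample, and dye and genotype therefore cannot be told apart for any value below. Whether a WT and a KO sample were hybridized to the same array is not given, and the tests treat the 12 samples as separate. Sample sums were nearly equal, at 594311 to 626783 in WT and 610239 to 636136 in KO. KO1 stood apart. Its mean correlation with the other KO samples, across the 370 miRNAs whose mean intensity reached 32, was 0.848, where the other 11 samples had 0.907 to 0.970 with their own group. The changes of the 4 miRNAs, their differences and their likenesses are therefore given with and without KO1, and the lists of other miRNAs with all 12 samples alone. The muscle miRNA miR-206 was bright, at 21732 to 28009 in WT and 21266 to 29194 in KO. miR-133a and miR-133b were at 4180 or more in every sample, whereas miR-499 and miR-208b, which accompany slow myosin genes, were at 30 or below. miR-1a, another muscle miRNA, was at 39535 to 51374 in WT and 40290 to 71199 in KO, with a log2 change of 0.17 (adjusted p = 0.685 from limma). Those of miR-133a, miR-133b and miR-206 were negative, at -0.35, -0.38 and -0.08 (adjusted p = 0.493, 0.476 and 0.855 from limma). miR-486 was not analysed here.

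The genotypes were compared on log2 intensities with limma over these 370 miRNAs, with Benjamini-Hochberg adjustment over all of them. All 4 miRNAs passed the filter on dim values. Their log2 changes (KO minus WT) were all negative, with a median of -0.49, where the median of the 370 was -0.08 and 56.8% were negative. None of the 4 passed the adjusted threshold of 0.05, which 5 of the 370 (1.35%) passed. At the unadjusted threshold of 0.05 that the methods name, miR-103 and miR-107 passed and were lower in KO, as were 36 of the 370 (9.73%). When the fit held the 144 brighter miRNAs alone, 25 of the 144 were lower at this threshold, with miR-26a, miR-103 and miR-107 among them. The median log2 change of these 144, which include all 4 miRNAs, was -0.15. The study's own list of altered miRNAs, chosen on these samples, holds miR-26a, miR-103 and miR-107, so these changes are not independent evidence of it. In a whole muscle, fewer cells with a miRNA and less of it in each cell cannot be told apart.

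**Figure D1:**
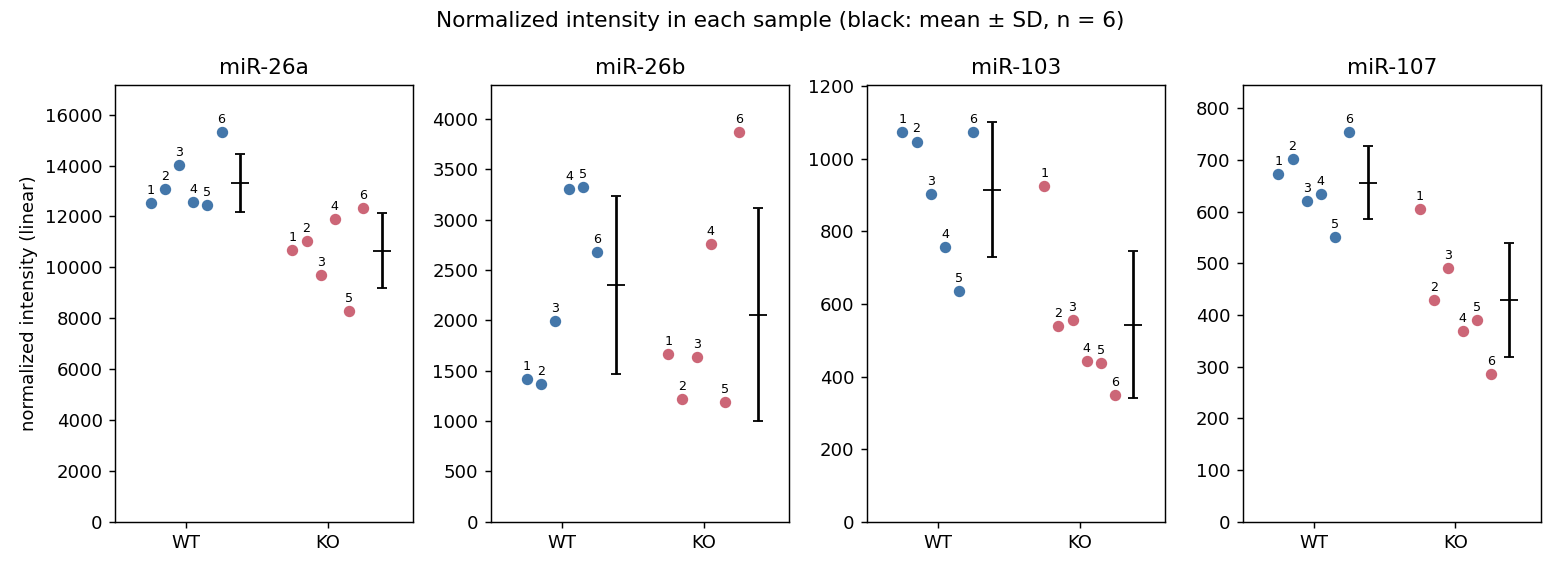
Normalized intensity (linear, vertical axis from 0) of each miRNA in the 6 WT and 6 KO samples; points carry the sample number, and black marks give the mean ± SD. All 6 KO samples of miR-26a lie below its WT samples, whereas 5 of 6 do for miR-103 and miR-107, with KO1 among the WT values, and the groups overlap widely for miR-26b.

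miR-103 had a lowest, median and highest normalized intensity of 636, 976 and 1075 in WT and of 349, 492 and 926 in KO. The highest KO value was that of KO1, and the other 5 KO samples, at 349 to 557, lay below every WT sample. WT averaged 915.7 ± 186 (SD, n = 6), and KO averaged 542.3 ± 203 (SD, n = 6). The log2 change was -0.80 (standard error 0.248, 95% interval -1.33 to -0.27, adjusted p = 0.0955 from limma), which corresponds to 0.574 of the WT level. It ranked 25 among the falls of the 370 miRNAs. An exact permutation test over samples (two-sided, 924 assignments) gave p = 0.0130, where the smallest p it can give is 0.0022.

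Without KO1 the log2 change of miR-103 was -0.97 (adjusted p = 0.0154 from limma), past the threshold. In that fit 49 of the 370 miRNAs passed, where 5 did with all 12 samples. Leaving out any other single sample did not take miR-103 past the threshold, and its adjusted p then reached at most 0.215, without WT2. The mean of the 5 remaining KO samples was 465.6 ± 84.7 (SD, n = 5).

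miR-107, which has the same seed, showed the same order of groups. Its lowest, median and highest intensities were 551, 654 and 755 in WT and 285, 410 and 606 in KO. KO1 was again the highest KO sample and lay above 1 WT sample, WT5, while the other 5, at 285 to 491, lay below every WT sample. The averages were 656.2 ± 70.9 for WT and 428.5 ± 110 for KO (SD, n = 6 each). The log2 change was -0.65 (standard error 0.202, 95% interval -1.08 to -0.21, adjusted p = 0.0955 from limma), or 0.638 of the WT level, with an exact permutation p of 0.0043. Without KO1 it was -0.76 (adjusted p = 0.0247 from limma), also past the threshold. At least 5 of 6 KO samples lay below every WT sample in 21 of the 370 miRNAs (5.68%), miR-26a, miR-103 and miR-107 among them.

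miR-26a had the smallest spread of the 4. Its lowest, median and highest intensities were 12456, 12813.5 and 15330 in WT and 8284, 10858.5 and 12349 in KO. The KO samples all lay under the lowest WT sample, KO1 included at 10689, although KO6 at 12349 and WT5 at 12456 were close. This complete separation downwards was seen in 3 of the 370 miRNAs (0.811%), with let-7i also among them. The averages were 13324 ± 1147 for WT and 10660 ± 1491 for KO (SD, n = 6 each). The exact permutation p was 0.0022, the smallest that 6 samples against 6 allow.

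The size of the miR-26a difference was modest. The log2 change was -0.33 (standard error 0.168, 95% interval -0.69 to 0.03), or 0.795 of the WT level, and limma put it past neither threshold (unadjusted p = 0.0697, adjusted p = 0.297). limma draws the spread of each miRNA towards a value common to all. The spread of miR-26a within groups was 0.17 (SD, log2 scale), 99.2% of the miRNAs tested had a larger one, and the median was 0.55. When the common value was allowed to follow intensity, with robust estimation, the same log2 change had an unadjusted p of 0.0112 and an adjusted p of 0.0995 from limma. In all, 7 of 13 other ways of processing or testing the 12 samples put miR-26a past the unadjusted threshold, with unadjusted p-values of 0.0060 to 0.141 over the 13, and array weights also put it past the adjusted one. Leaving out KO1 left the change in place at -0.33 (adjusted p = 0.197 from limma).

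miR-26b, with the miR-26a seed, had overlapping groups. Its lowest, median and highest intensities were 1367, 2336 and 3323 in WT and 1185, 1647.5 and 3872 in KO. In WT the values lay at 1367 to 1991 in WT1, WT2 and WT3 and at 2681 to 3323 in WT4, WT5 and WT6. In KO they lay at 1185 to 1664 in KO1, KO2, KO3 and KO5, at 2759 in KO4 and at 3872 in KO6, the highest of all 12. The highest value was 2.43 times the lowest in WT and 3.27 times in KO, against 1.23 and 1.49 times for miR-26a. WT averaged 2347 ± 886 (SD, n = 6) and KO averaged 2055 ± 1057 (SD, n = 6). The log2 change of miR-26b was thus -0.24, with a standard error of 0.344 and an adjusted p of 0.763 from limma. Its 95% interval, -0.98 to 0.50, covers both a fall larger than that of miR-103 and a rise, and the exact permutation p was 0.515. Without KO1 the log2 change was -0.21 (adjusted p = 0.733 from limma).

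**Figure D2:**
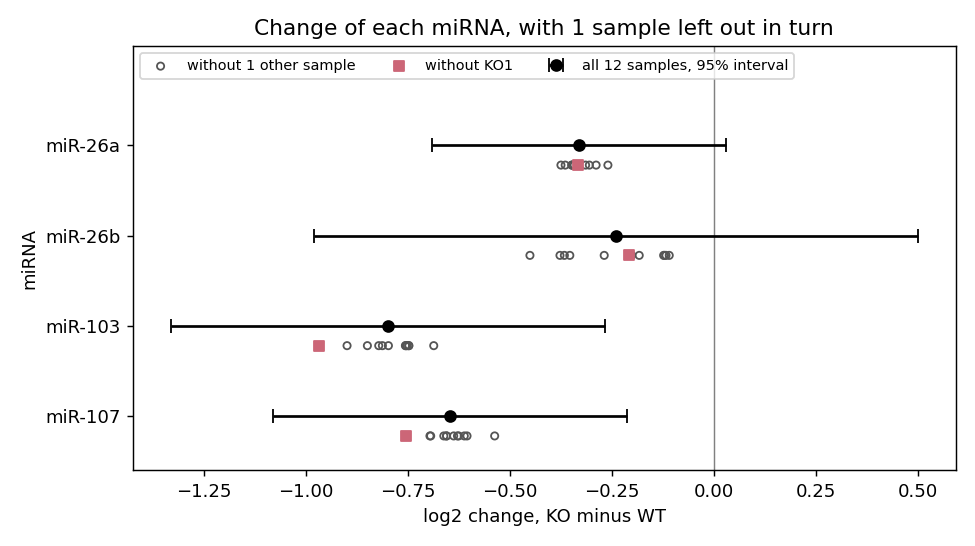
Log2 change (KO minus WT, horizontal axis) of each miRNA with its 95% interval from limma (black), and the changes with 1 sample left out in turn (open circles) or without KO1 (red squares). miR-103 and miR-107 move farthest from 0 without KO1, at -0.97 and -0.76, whereas miR-26a stays at -0.33 and the interval of miR-26b spans 0.

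**Figure D3:**
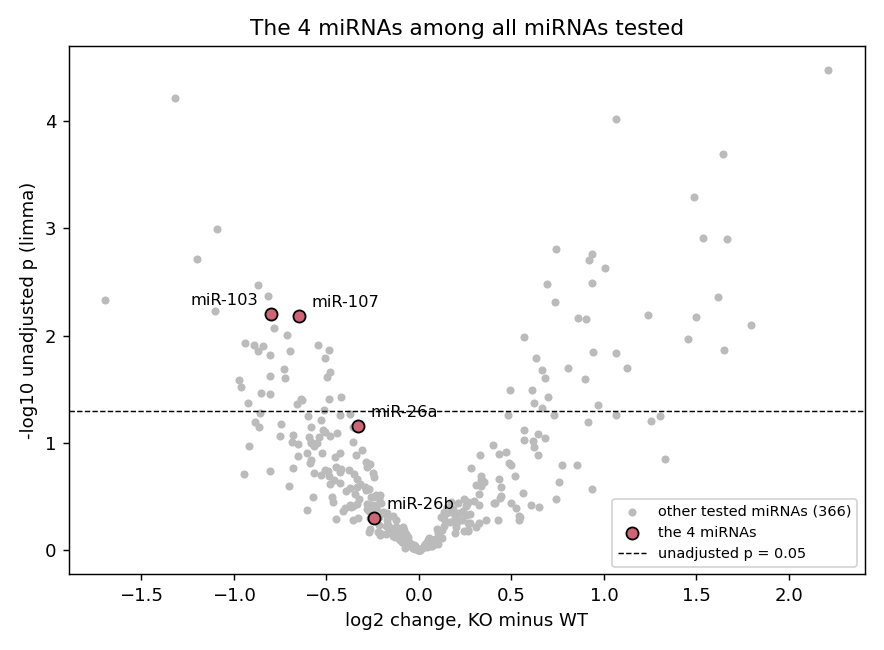
Log2 change (KO minus WT, horizontal axis) against -log10 of the unadjusted limma p (vertical axis) for the 370 miRNAs tested, with the 4 miRNAs in red and the threshold of 0.05 as a dashed line. miR-103 and miR-107 lie above the line at -0.80 and -0.65, and miR-26a and miR-26b lie below it.

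Differences between the changes of the 4 miRNAs were tested with the log2 difference of 2 miRNAs within each sample, which cancels any scaling of the whole sample. In all, 6 pairs were compared by an exact permutation test over samples, with adjustment over the 6. None passed, with adjusted p-values of 0.351 to 0.771 (exact permutation test). A p of this size does not show that the members change alike. The widest gap relative to its error was that of miR-103 and miR-26a, whose changes differed by -0.47 on the log2 scale (95% interval -1.03 to 0.09, adjusted p = 0.351, exact permutation test). The change of miR-107 differed from that of miR-26a by -0.32 (95% interval -0.78 to 0.14). Without KO1 these differences were larger, at -0.64 (exact permutation p = 0.0108, adjusted p = 0.0649) and -0.42 (exact permutation p = 0.0476, adjusted p = 0.0952), and still none of the 6 passed after adjustment.

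Within the families the differences were smaller. miR-107 minus miR-103 averaged -0.46 ± 0.19 for WT and -0.31 ± 0.16 for KO (SD, n = 6 each) on the log2 scale. It lay between -0.33 and -0.16 in 5 of the KO samples and at -0.61 in KO1, and the WT samples spanned -0.67 to -0.21. The changes of the 2 miRNAs differed by 0.15 (95% interval -0.07 to 0.38), and by 0.21 without KO1 (exact permutation p = 0.0455, adjusted p = 0.0952). miR-26b minus miR-26a averaged -2.59 ± 0.59 for WT and -2.50 ± 0.53 for KO (SD, n = 6 each), and their changes differed by 0.09 with a wide interval, -0.63 to 0.81.

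**Figure D4:**
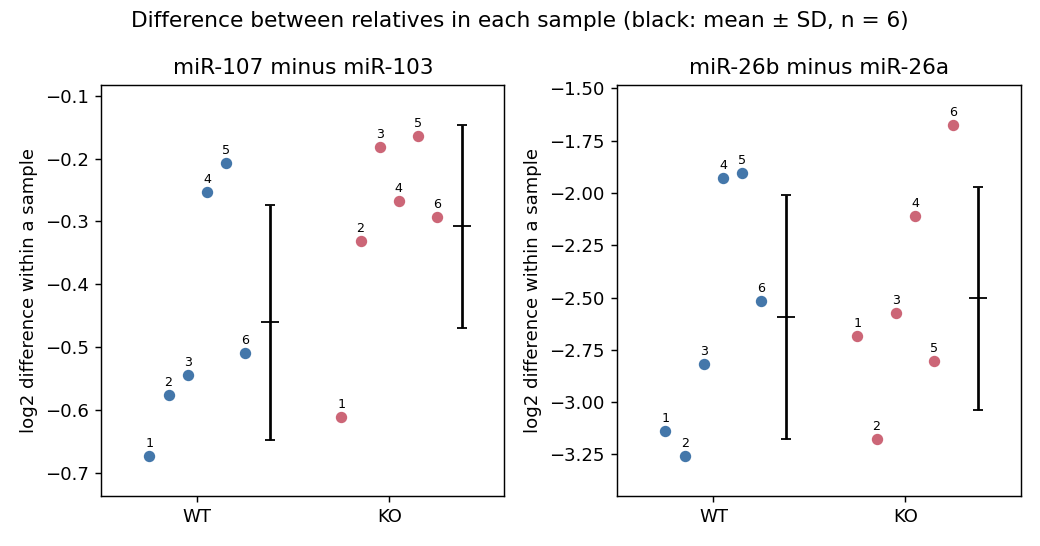
Difference of log2 intensities within a sample (vertical axis) for miR-107 minus miR-103 and for miR-26b minus miR-26a in the WT and KO samples; points carry the sample number, and black marks give the mean ± SD. WT and KO overlap in both panels, with a wider spread for the miR-26 pair, from -3.26 to -1.67.

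Among the mice of 1 genotype, miR-103 and miR-107 varied together. Pearson's r of their log2 intensities was 0.893 in WT (exact permutation p = 0.0167, adjusted p = 0.0333 over 4 relations) and 0.959 in KO (exact permutation p = 0.0069, adjusted p = 0.0278), and without the 2 samples farthest from the median it was 0.826 and 0.907. Spearman's rho was 0.841 (exact permutation p = 0.0444, adjusted p = 0.0778) and 0.943 (exact permutation p = 0.0167, adjusted p = 0.0667). The near-identical sequences mean that shared capture by the probes could enter this relation, and its part was not tested. For miR-26a and miR-26b, r was 0.0439 in WT (exact permutation p = 0.949, adjusted p = 0.949) and 0.764 in KO (exact permutation p = 0.0736, adjusted p = 0.0981). Spearman's rho was -0.314 (exact permutation p = 0.564, adjusted p = 0.564) and 0.829 (exact permutation p = 0.0583, adjusted p = 0.0778), and without the 2 samples farthest from the median r was -0.606 and 0.520. No relation was thus shown for the miR-26 pair.

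The miRNAs most like each of the 4 were sought by the correlation of log2 intensities over the 12 samples after the mean of each genotype was taken off, against 369 others. These values describe the samples, share the authors' normalization, and carry no test. For miR-26a the highest were the let-7 family members let-7c (r = 0.836), let-7f (0.789) and let-7i (0.784). For miR-26b they were let-7g (0.857), miR-671-5p (0.827) and miR-3110* (0.819). Between genotypes, let-7c, let-7i and let-7g were lower in KO at the unadjusted threshold (log2 changes of -0.42, -0.49 and -0.49). miR-671-5p was higher at that threshold (0.93), let-7f and miR-3110* did not pass it, and none of these miRNAs passed the adjusted one. miR-26a and miR-26b were only moderately alike (0.520), each outside the nearest 20 of the other. Without KO1 the nearest to miR-26a were still let-7c (0.839) and let-7f (0.830), with let-7i in place 5, while for miR-26b let-7g, miR-671-5p and miR-3110* stood in places 3, 6 and 7 at nearly the same r (0.861, 0.825 and 0.817).

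For miR-107 the most similar was miR-103 (r = 0.930), followed by miR-720 (0.891), a name since assigned to a tRNA fragment, and miR-744 (0.866). For miR-103 the order was miR-720 (0.946), miR-31 (0.939), miR-351* (0.933) and then miR-107. miR-31 and miR-351* are dim, with mean intensities of 35.5 and 54.3 in WT. None of miR-720, miR-31, miR-351* and miR-744 passed a threshold between genotypes (adjusted p = 0.685 to 0.946 from limma). Without KO1 the value for miR-103 and miR-107 was 0.874, which put miR-103 in place 2 for miR-107, and miR-744 in place 9 (0.764). Those for miR-103 with miR-720, miR-31 and miR-351* were 0.937, 0.868 and 0.862, in places 1, 4 and 6. miR-26b ran against the other family, with r of -0.567 to miR-103 and -0.545 to miR-107, and of -0.728 and -0.646 without KO1. In KO6, for example, miR-26b had its highest and miR-103 and miR-107 their lowest intensities of all 12 samples.

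The passenger strands, cut from the other arm of the same hairpins, were dim, and none of the 6 passed the filter. Over the 12 samples miR-26a-1*, miR-26a-2*, miR-26b* and miR-107* lay between 0 and 13. miR-103-1* lay between 6 and 39, and miR-103-2* between 7 and 81, with its highest value in KO2. The loci of miR-26a and miR-103 could therefore not be separated through their passenger strands.

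The miR-15/16 group is related to miR-103 and miR-107 by sequence. The 6 bases GCAGCA stand at positions 2 to 7 of miR-103 and miR-107 and at positions 3 to 8 of miR-16 and most of its group, so that the seeds overlap with an offset of 1 base. miR-16 is shown with these 6 bases in capitals, as is miR-107.
miR-16: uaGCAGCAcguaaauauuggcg
miR-107: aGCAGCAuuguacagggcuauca

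Of 7 miRNAs in the group, miR-15a was too dim to be tested, and of the other 6 none passed the adjusted threshold. At the unadjusted threshold miR-16 and miR-503, which does not hold GCAGCA, were lower in KO and the other 4 did not pass. The median log2 change over the 6 was -0.48. Of all 370 miRNAs, 9.73% were lower at that threshold. For miR-16, WT averaged 2099 ± 411 (SD, n = 6) and KO averaged 1027 ± 373 (SD, n = 6). The log2 difference was -1.09 (adjusted p = 0.0586 from limma). KO1, at 1626, was its highest KO sample, as for miR-103 and miR-107. miR-497 had the smallest change, at 0.00194 (adjusted p = 0.998 from limma). The letters GCAGCA stood at position 3 in 10 of the 1679 mature names and at position 2 in 3 of them.

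The 4 miRNAs were also set beside widely expressed miRNAs that are often taken as reference levels, since miR-103 is itself used in this way. Of 10 such miRNAs, 8 were tested, none passed the adjusted threshold, and the median log2 change was -0.26. At the unadjusted threshold miR-16, which is also in the group above, miR-25 and miR-93 were lower in KO, against 9.73% of all 370. let-7a, miR-24, miR-191, miR-320 and miR-423-5p did not pass. miR-423-5p had the smallest log2 change, 0.06, with a standard error of 0.555. A second list held 25 miRNAs within protein-coding genes, of which 21 had a hairpin within such a gene in RefSeq and the others had no matched locus. Of the 15 tested, none passed the adjusted threshold, 5 were lower and 1 (miR-326) higher in KO at the unadjusted one, and the median log2 change was -0.52. miR-25 and miR-93 count as lower in both lists. The largest change in the second list was that of miR-126-3p, hosted in the endothelial gene Egfl7 (-1.20), and the smallest that of miR-378 (-0.08). miR-378, miR-151-3p and miR-151-5p were tested although they had no matched locus.

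Markers of other cell types were measured because all 4 miRNAs are made by many cell types. The endothelial pair summed to 2233 to 4745 in WT and to 765 to 2709 in KO. This came from miR-126-3p, which passed the unadjusted threshold (adjusted p = 0.0615 from limma), while miR-126-5p was at 6 or below. The erythroid pair summed to 49 to 420 in WT and 18 to 318 in KO, with miR-451 at a log2 change of -0.94 (adjusted p = 0.497 from limma). The 4 leukocyte markers summed to 31 to 62 in WT and 33 to 63 in KO, and miR-142-3p was at 7 or below, with some values of 0. The smooth muscle pair summed to 3555 to 4909 and 3241 to 6241, and the 3 fibroblast and mesenchyme markers to 16074 to 21782 and 14641 to 19988, with none of these 5 past either threshold. The endothelial sum was thus lower in KO, with overlapping ranges, as were the means of miR-103, miR-107 and miR-26a. Its part in their values was not tested. Every tested erythroid, smooth muscle, and fibroblast and mesenchyme marker also had a negative log2 change, from -0.94 (miR-451) to -0.02 (miR-143). None of those passed the unadjusted threshold.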

How the data were processed

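Total RNA was isolated with miRVana kits and profiled on a mouse miRBase array by a service company. The authors deposited normalized intensities, linear and in whole numbers, 1 per miRNA name and sample; the normalization, background correction and averaging of spots are not given in the sources used here. No value was missing. Array values carry no counts, so the 6 samples per group limit the precision.

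Samples were grouped by the genotype in their titles. After a floor of 1, intensities were taken to log2. The filter required a mean of 32 over the 12 samples, and the 370 miRNAs that met it were compared with limma 3.58.1 (lmFit, eBayes) in R 4.3.3, two-sided, at a threshold of 0.05. The methods name no test for the miRNAs. Intervals of differences between members used the pooled SD within groups. On simulated data made from the 370 miRNAs the fit recovered 55.5% of log2 changes of 1 and 91.8% of changes of 2. Of its calls, 3.63% were false. The changes of the 4 miRNAs were smaller than those simulated. No simulated sample stood apart as KO1 did, so these rates do not describe the 4. Figures were drawn with matplotlib 3.10.9.

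The members and lists were chosen with earlier results of these data known. Named miRNAs were the 4 members, their passenger strands, the 3 most similar miRNAs to each, and in each list the largest and smallest log2 change; miR-1a, miR-206, the miRNAs past the unadjusted threshold, markers used as examples and list members counted without passing were named besides, after their values were seen. Host genes and sequences came from RefSeq tables of GRCm38.p6. The deposited table of intensities names no build. The alternatives were other floors, pseudocounts, filters, normalizations and tests, a replicate block, array weights, ratios of arithmetic means and leaving out each sample.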

Additional observations from a re-analysis of the deposited data

How the results depend on the processing

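The direction of all 4 changes was kept under every alternative that was run. The other floor, the other filters, the replicate block, Student's tests and the variance trend returned the same log2 changes, so these could not alter the direction. The side of the adjusted threshold changed for 3 of the 4 miRNAs. With array weights, which gave KO1 the lowest weight (0.156), the log2 changes were -0.44 for miR-26a (adjusted p = 0.0295 from limma), -0.87 for miR-103 (adjusted p = 0.0042) and -0.60 for miR-107 (adjusted p = 0.0101), all past it. In that fit 115 of the 370 miRNAs passed. With a mean intensity of at least 500, miR-103 at -0.80 and miR-107 at -0.65 passed (adjusted p = 0.0404 and 0.0340 from limma). There 144 miRNAs entered the adjustment and 21 passed. With 1 sample left out the changes ran from -0.97 to -0.69 for miR-103, from -0.76 to -0.54 for miR-107, from -0.38 to -0.26 for miR-26a and from -0.45 to -0.11 for miR-26b, and only the fits without KO1 took miR-103 and miR-107 past the threshold. miR-26a passed the unadjusted threshold under 7 of 13 other settings and in 0 of 12 when single samples were omitted.

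The difference between the changes of miR-26b and miR-26a, 0.09, changed sign without WT1 (-0.02), WT2 (-0.04) or KO6 (-0.076), within a range of -0.076 to 0.23. The other 5 differences between members kept their sign and stayed short of the threshold. Cyclic loess gave the smallest changes of miR-103 (-0.68) and miR-107 (-0.50).

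Of all miRNAs, 5 passed the adjusted threshold in the fit reported. Array weights raised this to 115, the 500 minimum to 21, a variance trend to 14, adding 50 before the log to 14, cyclic loess to 11, Student's test on linear intensities to 9 and quantile normalization to 8, and testing all 1096 names lowered it to 1. Omitting single samples gave 3 (WT3 or KO2), 8 (KO4), 11 (WT4) and 49 (KO1). The unadjusted count of 72 became 156 with weights, 123 for all names, 106 without KO1 and 45 at the 500 minimum. The cause was not tested.

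Whether sample numbers mark litters is not given, and the data did not settle it. The correlation of same-numbered samples' deviations ran from -0.45 to 0.59, and 2 of the 6 WT samples correlated best with their own number. A replicate block gave 4 calls and adjusted p-values of 0.106 for miR-103, 0.139 for miR-107, 0.329 for miR-26a and 0.673 for miR-26b from limma, with no call changed among the 4. The likenesses without KO1 were computed after the data were seen.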
